A study of Mus musculus with 35 samples.

Results

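The plasma cell regulators and surface genes described here are 9 genes: the transcriptional regulators Prdm1, Xbp1, Irf4, Ell2 and Zbtb20, and the surface proteins Sdc1, Cd93, Tnfrsf17 and Slamf7. They were listed by symbol for their known roles, and each was read from the probe set with the highest mean over all 35 arrays, so that 9 of 12393 measured genes are described. The arrays, Affymetrix Mouse 430A2, came from lymphoid tumours and from wild-type B cells purified by flow cytometry. The tumours came from mice with a Bcl6 knock-in (n = 4), from Bcl6/Myc dual-transgenic mice, labelled Myc/Bcl6 (n = 3), and from double knock-out mice lacking Lig4 and p53 (n = 6). The sorted cells were plasma cells of bone marrow (B220-low, Cd138+, Cd93-, strain B6, n = 3), plasmablasts of spleen (B220+, Cd138+, Cd93-, B6, n = 4), germinal centre (GC) B cells of spleen (B220+, PNA-high, B6, n = 5), transitional B cells of spleen (B220+, Cd93+, strain 129, n = 4), pre-B cells of bone marrow (B220+, CD43-low, IgM-, 129, n = 3) and pro-B cells of bone marrow (B220+, CD43-high, IgM-, 2 arrays of 129 and 1 of B6, n = 3). Cd138 is the protein of Sdc1. The labels give no ages and do not say which cells carry the transgenes, whether the tumours were purified, or whether replicates were separate mice, so that p-values measure the spread between these arrays.

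An activated B cell becomes an antibody-secreting plasma cell through a switch of transcription factors. Irf4 induces Prdm1, which encodes Blimp-1, a repressor that shuts off the B-cell program, including Bcl6, the repressor that maintains the GC state, while Xbp1, spliced on endoplasmic reticulum (ER) stress, widens the secretory apparatus. Ell2, an elongation factor, favours the secreted form of immunoglobulin heavy chain mRNA, and Zbtb20, a BTB zinc finger repressor, supports plasma cell differentiation and survival. On the surface, syndecan-1 (Sdc1) is the classical plasma cell marker, Cd93 is found on immature B cells and again on long-lived plasma cells, Tnfrsf17 (BCMA) binds the survival factors BAFF and APRIL, and Slamf7 is an adhesion receptor of plasma cells and NK cells.

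All levels below are log2 probe set intensities. The 9 genes covered much of the measured range. Irf4 had a mean of 9.58 over the 35 arrays, above 95.8% of the genes, whereas Tnfrsf17 had a mean of 3.98, above 29.9% of them, so that its differences lie near the dim end of the scale. Array quality differed with the groups. The mean 18S rRNA signal reached at most 6.15 in tumours and 7.38 in plasma cells, against at least 10.04 in all other sorted cells. The log2 difference between 3' and 5' probe sets of Actb and Gapdh, larger in shorter RNA, ran from 2.25 to 4.69 over the tumours and from 0.68 to 2.95 over the sorted cells other than plasma cells, whose replicates 1 and 2 had 4.59 and 4.46 and replicate 3 had 0.451. The narrowest spreads of intensity were on 3 arrays, called arrays of narrow spread below. Their interquartile ranges were 2.15 (Bcl6 tumour replicate 2), 2.03 (pre-B replicate 2) and 2.09 (pro-B replicate 1). All 3 Myc/Bcl6 tumour arrays came next, at 2.63, 2.85 and 2.33, against at least 3.25 on the remaining arrays. In bulk RNA, fewer cells of a type and less RNA per cell cannot be told apart.

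Sdc1 mRNA did not follow the Cd138 label. It was 3.88, 4.60 and 5.71 in the Cd138+ plasma cells, the lowest mean of the 9 groups (4.73). It was 9.06, 9.99, 10.44 and 5.52 in the Cd138+ plasmablasts. Among cells sorted without an antibody to Cd138, pre-B cells had 10.43, 10.98 and 10.46, the highest mean of all groups (10.63). Transitional cells had 8.59, 8.69, 6.85 and 7.98, all below plasmablast replicates 1, 2 and 3 and above replicate 4. Plasma cells and plasmablasts overlapped through plasmablast replicate 4, which lay below plasma cell replicate 3. GC cells, from 6.31 to 7.42, lay above every plasma cell array and plasmablast replicate 4, and below plasmablast replicates 1, 2 and 3. Because the antibody to Cd138 chose both groups, the difference of plasma cells from plasmablasts (-4.02 on the log2 scale) is given as a description only. The 3 other probe sets of Sdc1 did not place plasma cells on top either. Their means in plasma cells were 2.63, 4.18 and 4.79, against 6.46, 6.08 and 4.76 in plasmablasts. These probe sets followed the one used to different degrees, with Pearson correlations over the 35 arrays of 0.573, 0.717 and 0.0046. Markers of other cells were also high in the pre-B arrays. The mean of 12 granulocyte markers was 8.26 to 10.97 there, against 3.66 to 5.14 in transitional cells and 3.15 to 3.79 in plasma cells. That of 6 erythroid markers was 7.60 to 7.69, against 4.05 to 4.55 and 3.44 to 4.04 in the same order. Their part was not tested.

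Cd93 mRNA did not separate the Cd93- sorts from the Cd93+ sort. The Cd93- plasma cells had 8.14, 7.84 and 6.03 and the Cd93- plasmablasts 5.00, 5.90, 6.39 and 5.52, against 7.74, 7.51, 5.03 and 5.64 in the Cd93+ transitional cells, so that 2 of 3 plasma cell arrays lay above every transitional array. The highest levels among sorted cells were in pro-B cells (7.47, 9.51 and 9.32) and in pre-B replicates 1 and 3 (9.46 and 9.67). Pre-B replicate 2, an array of narrow spread, had 3.66. The other probe set of Cd93 ranked the sorts differently: transitional cells had 5.10 to 6.54, above the plasmablasts (4.33 to 4.95) and overlapping the plasma cells (4.72 to 5.51). Its correlation with the probe set used was 0.085 over the 35 arrays. Granulocyte markers were high in the pro-B arrays as in the pre-B arrays, with a mean of 9.49 to 10.05. Their part was not tested.

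**Figure D1:**
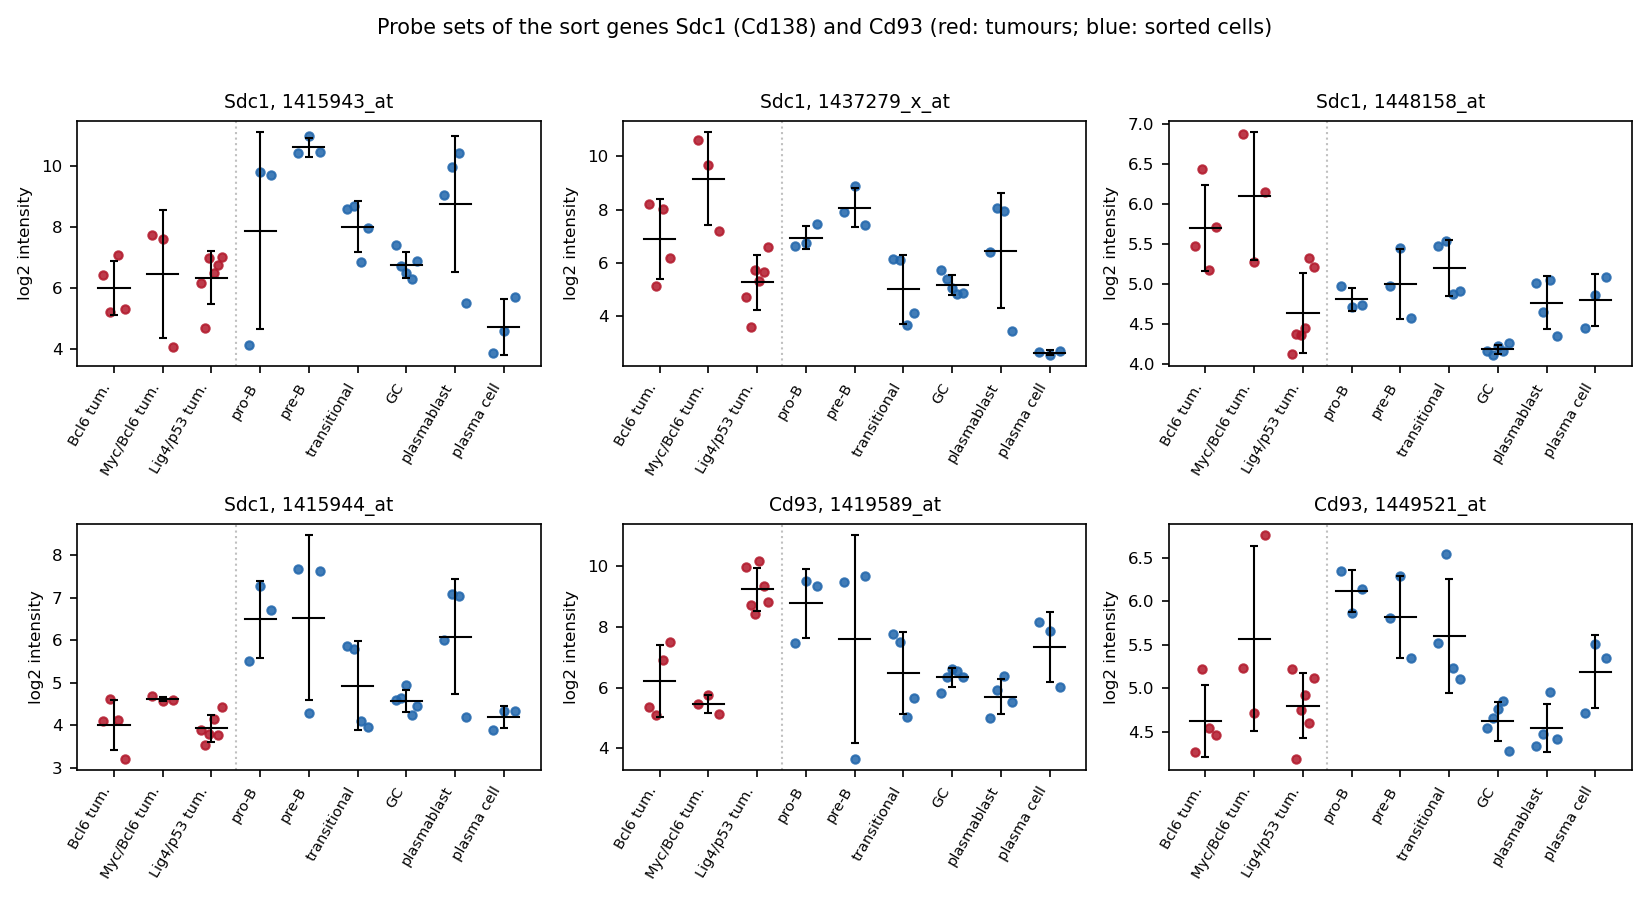
Log2 intensity of the 4 Sdc1 and 2 Cd93 probe sets in each array (points; red tumours, blue sorted cells), with the group mean (horizontal bar) and SD (vertical bar). In the Sdc1 probe set with the highest mean, 1415943_at, plasma cells average 4.73 and pre-B cells 10.63.

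Other markers of plasma cells gave the arrays labelled plasma cells different ranks. Among the 6 sorted populations, plasma cells ranked 1 of 6 in Prdm1 (mean 7.01) and 2 of 6 in Xbp1 (7.66) and Tnfrsf17 (4.15). They ranked 5 of 6 in Irf4 (10.09) and 6 of 6 in Slamf7 (4.96) and Sdc1. Jchain, which joins the units of secreted IgM and IgA, was 9.81 to 10.11 in plasma cells, against 11.10 to 12.07 in GC cells. Ighm, the IgM heavy chain, was 13.14 to 13.41 in plasma cells, above the GC range of 11.05 to 11.83. Ptprc, whose B220 form was low in the sort, had 9.32 to 10.76 in plasma cells and 10.21 to 10.83 in plasmablasts.

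The 9 genes took different orders across the groups. Prdm1 had its highest means in plasma cells (7.01), Bcl6 tumours (6.87) and plasmablasts (6.61), and its lowest in Lig4/p53 tumours (5.00). Xbp1 was highest in the tumours labelled Myc/Bcl6 (9.42) and Bcl6 (8.54), then in plasmablasts (7.92) and plasma cells (7.66). Ell2 was highest in the same tumour groups (10.10 and 10.08), then in GC cells (9.22). Irf4 was highest in transitional (11.70) and pre-B cells (11.37) and lowest in Myc/Bcl6 tumours (5.24). Zbtb20 was highest in GC cells (9.97). Cd93 and Slamf7 had their highest means in Lig4/p53 tumours (9.23 and 8.70) and Tnfrsf17 in Myc/Bcl6 tumours (5.11). Neighbours in these orders mostly overlapped. Of 72 neighbouring pairs, 4 did not: Zbtb20 in GC cells over Bcl6 tumours and in Myc/Bcl6 over Lig4/p53 tumours, Ell2 in transitional over pre-B cells, and Slamf7 in transitional over plasma cells.

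**Figure D2:**
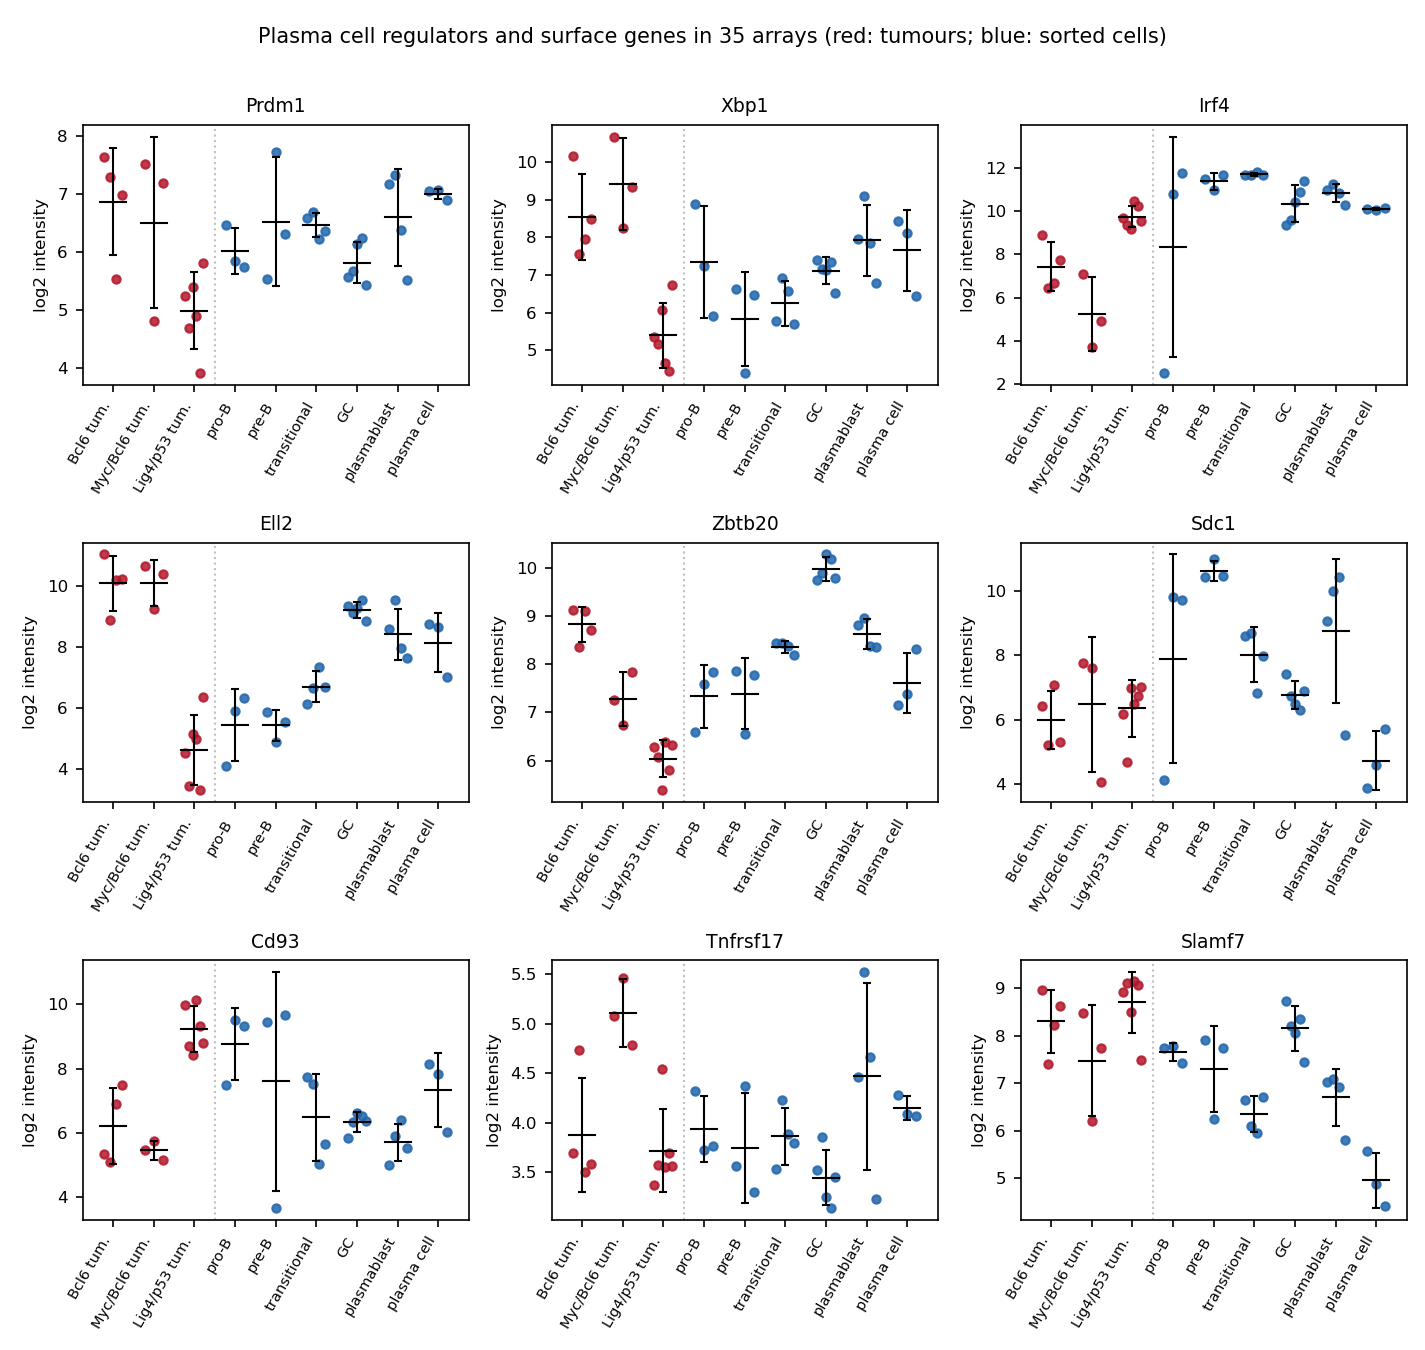
Log2 intensity of each of the 9 genes in the 35 arrays (points; red tumours, blue sorted cells), with group means (horizontal bars) and SDs (vertical bars). Slamf7 is lowest in plasma cells (mean 4.96), Zbtb20 highest in GC cells (9.97) and Irf4 lowest in Myc/Bcl6 tumours (5.24).

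Plasma cells, the last stage of the lineage, were compared with plasmablasts and with GC cells. They came from bone marrow and both other groups from spleen. Their 18S rRNA signal was 4.02 to 7.38, against at least 10.04 in both other groups. Stage, tissue and array quality thus cannot be told apart in these comparisons, nor in those of the gene lists below. Sdc1 and Cd93, which chose the sorted cells, are not counted in these comparisons. Slamf7 fell in plasma cells in both comparisons. Its levels were 5.58, 4.87 and 4.42 in plasma cells, against 7.02, 7.08, 6.92 and 5.81 in plasmablasts, and 8.72, 8.20, 8.06, 8.35 and 7.44 in GC cells. Every plasma cell array was below every array of both other groups. The log2 difference was -1.75 ± 0.42 (SE) against plasmablasts and -3.20 ± 0.40 against GC cells (limma, adjusted p = 0.00631 and 6.27e-06). Zbtb20 fell too against GC cells, with 7.15, 7.37 and 8.32 in plasma cells, against 9.74, 9.88, 10.27, 10.18 and 9.78 in GC cells (-2.36 ± 0.35, adjusted p = 4.39e-05). Against plasmablasts its difference was -1.01 ± 0.36 (adjusted p = 0.0675), and without plasma cell replicate 3 it was -1.37 (adjusted p = 0.0179). Of the other probe sets of Zbtb20, 1451577_at fell in plasma cells against GC cells by 2.06 on the log2 scale (adjusted p = 0.00285), and 1422064_a_at had a difference of -0.36 (adjusted p = 0.70).

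Thus 1 of 7 genes passed the test against plasmablasts, where 14.3% of all genes did and 5.39% were lower. Against GC cells 2 of 7 passed, both lower, where 19.5% of all genes passed and 7.63% were lower. The other 5 stayed short of the threshold against GC cells. Prdm1 was 7.05, 7.07 and 6.90 in plasma cells, against 5.58, 5.68, 6.14, 6.25 and 5.45 in GC cells, and no array overlapped. Its difference was 1.19 ± 0.42 (adjusted p = 0.0535), and the value passed without the 3 arrays of narrow spread, none of which belongs to either group (adjusted p = 0.0063). Xbp1 differed by 0.54 ± 0.63 from GC cells, with 8.44, 8.11 and 6.43 in plasma cells, and Irf4 by -0.24 (adjusted p = 0.599 and 0.911). Ell2 was 8.74, 8.66 and 7.02 in plasma cells, against 9.36, 9.10, 9.26, 9.53 and 8.86 in GC cells (-1.08 ± 0.50, adjusted p = 0.142). For Xbp1 and Ell2, plasma cell replicate 3, the array whose 3' to 5' difference and 18S rRNA signal stood apart, was the lowest of its group. Tnfrsf17 differed from GC cells by 0.70 ± 0.38 (adjusted p = 0.216).

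Of 12 measured B-cell genes that Prdm1 and its partners are known to shut off, 8 fell in plasma cells against plasmablasts. Of all genes, 5.39% fell there. Against GC cells 6 of the 12 fell, where 7.63% of all genes did. None rose, and the other 4 and 6 did not pass. The median difference of the 12 was -1.60 against plasmablasts and -1.71 against GC cells, where the median of all genes was 0.22 and 0.28. Bcl6 fell most, with 3.47 to 3.81 in plasma cells, against 9.11 to 9.75 in plasmablasts and 10.63 to 11.57 in GC cells. Its differences were -5.76 ± 0.70 and -7.60 ± 0.67 (adjusted p = 6.2e-06 and 5.6e-08). Ets1, a transcription factor that restrains plasma cell differentiation, fell by 2.22 and by 3.05 on the log2 scale, and Ebf1, a factor of B-cell identity, fell by 1.81 and by 3.06. Pax5, the best known target, fell against plasmablasts by 1.05 (adjusted p = 0.0416), and against GC cells its difference of -0.34 did not pass (adjusted p = 0.51). Pax5 was dim throughout the sorted cells, at 3.18 to 5.37.

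**Figure D3:**
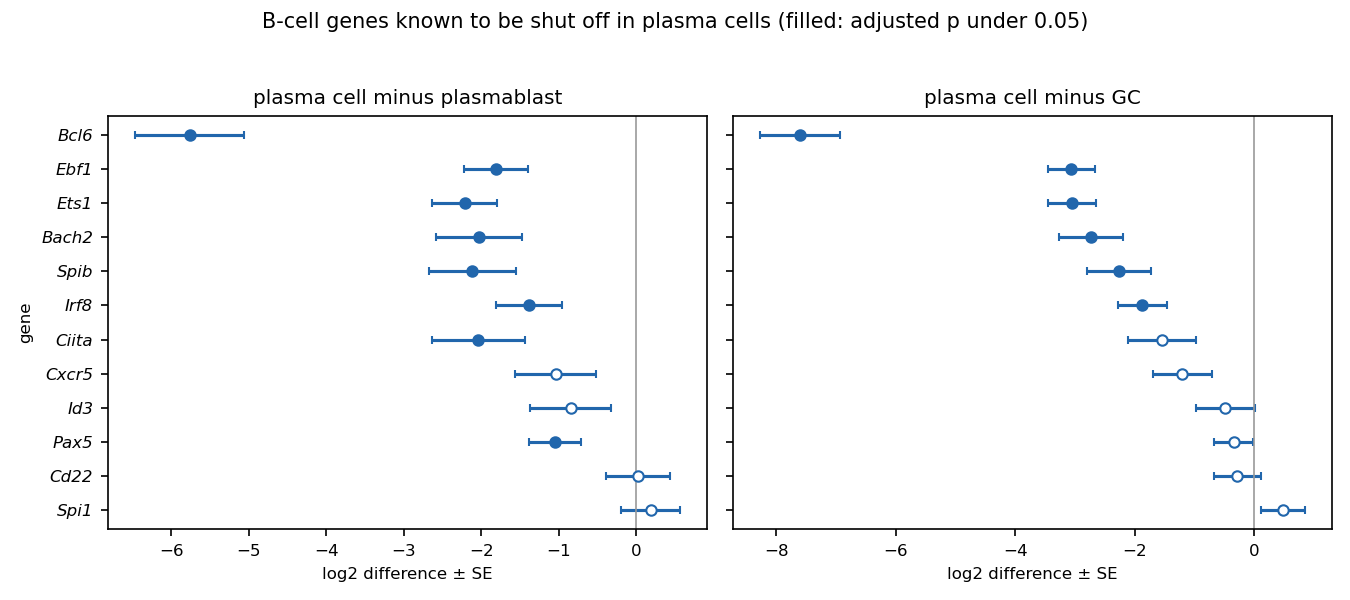
Log2 difference of plasma cells from plasmablasts (left) and from GC cells (right) for the 12 measured B-cell genes known to be shut off in plasma cells, with SE bars; filled points have an adjusted p under 0.05. Bcl6 lies farthest to the left, at -5.76 and -7.60.

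Of 26 measured genes of the secretory apparatus, among them targets of Xbp1, 3 rose and 3 fell in plasma cells against GC cells, where 19.5% of all genes passed, and 1 fell against plasmablasts, where 14.3% did. The share that passed was thus near that of all genes against GC cells and below it against plasmablasts. Dnajb9, an ER chaperone, fell by 2.40 on the log2 scale and Eif2ak3, the stress sensor PERK, fell by 2.20 against GC cells, while Pdia6, a disulfide isomerase, rose (2.02 ± 0.61, adjusted p = 0.0214). Derl3, a component of ER-associated degradation, fell by 3.20 against plasmablasts (adjusted p = 0.000117). Of 10 measured partners of Ell2 and subunits of elongation complexes, 1 rose and 2 fell against GC cells, against the same 19.5% of all genes. Eaf2, which binds Ell proteins, fell by 3.12 and Aff4, a scaffold of the super elongation complex, by 2.15, and Mllt1 (ENL) rose by 1.95. Of 9 relatives of Slamf7 and their adaptors, 1 rose and 5 fell against GC cells, where 7.63% of all genes fell, among them Slamf1 (-3.33 ± 0.43), Cd244a (-3.81 ± 0.63), a receptor also carried by NK cells, and Sh2d1a, an adaptor of T and NK cells (-3.44 ± 0.64). None of the 3 measured receptors and ligands related to Tnfrsf17, and none of the 3 other syndecans, passed the test against GC cells by limma, and 0 of each 3 had an unadjusted p under 0.05. Of 12 other genes known from plasma cells, 2 rose and 3 fell against GC cells, where 11.9% of all genes rose and 7.63% fell. Fkbp11, an ER prolyl isomerase, was higher (4.16 ± 0.66). Pou2af1, the octamer coactivator OBF-1, and Cxcr4, a homing receptor, were lower (-2.64 ± 0.33 and -2.47 ± 0.39).

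Markers of other cells moved with Slamf7 and Zbtb20. The mean of 8 NK-cell markers was 3.43 to 4.24 in plasma cells and 4.22 to 5.65 in plasmablasts, against 6.45 to 7.33 in GC cells, and that of 10 T-cell markers was 4.19 to 4.77 in plasma cells and 4.75 to 5.15 in plasmablasts, against 5.80 to 6.70 in GC cells. The T-cell receptor subunit gene Cd3e had 3.48 to 3.86 in plasma cells, against 7.58 to 8.69 in GC cells. The mean of 12 granulocyte markers was 3.15 to 3.79 in plasma cells, against 5.98 to 7.95 in plasmablasts and 5.89 to 7.97 in GC cells. Of the 12, 7 and 8 fell in these comparisons (median difference -4.01 and -3.80), where 5.39% and 7.63% of all genes fell. The mean of 12 macrophage and dendritic cell markers was 4.02 to 4.11 in plasma cells, against 4.31 to 5.73 in plasmablasts and 5.46 to 6.48 in GC cells. That of 6 erythroid markers was 3.44 to 4.04 in plasma cells, against 4.41 to 6.77 in plasmablasts and 4.40 to 5.18 in GC cells. Their part in these differences was not tested.

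In plasmablasts against GC cells, 0 of 7 genes passed the test, where 0.678% of all genes did. By limma, 3 of the 7 had an unadjusted p under 0.05. The share of all genes at this unadjusted threshold was not counted. Zbtb20 was 8.82, 8.96, 8.39 and 8.35 in plasmablasts, below all GC arrays (-1.34 ± 0.32, adjusted p = 0.0536), and Slamf7 had a difference of -1.45 ± 0.37 (adjusted p = 0.0663). Tnfrsf17 was 4.46, 5.53, 4.67 and 3.23 in plasmablasts, against 3.52, 3.86, 3.25, 3.14 and 3.46 in GC cells (1.03 ± 0.35, adjusted p = 0.225). Plasmablast replicate 4 was low in this gene as it was in Slamf7, Prdm1, Xbp1 and Ell2, and without it Tnfrsf17 passed (1.44, adjusted p = 0.0284). Replicate 4 was also the lowest plasmablast array in Sdc1 (5.52), Jchain and Ighm. Jchain was 8.19 in it, against 10.66 to 12.49 in replicates 1 to 3, and Ighm was 11.21, against 13.25 to 13.61. Slamf7 passed without GC replicate 5 (-1.63, adjusted p = 0.0449). Prdm1 had 7.18, 7.34, 6.38 and 5.52 in plasmablasts and differed by 0.79 ± 0.39, and Xbp1 had 7.95, 9.10, 7.84 and 6.79 and differed by 0.80 ± 0.58. Against transitional cells, likewise 0 of 7 passed, where 0.42% of all genes did, and 2 had an unadjusted p under 0.05: Xbp1 (1.68 ± 0.61) and Ell2 (1.72 ± 0.48), with adjusted p = 0.199 and 0.104. Both passed without the 3 arrays of narrow spread (adjusted p = 0.0212 and 0.00964). The plasmablasts were of strain B6 and the transitional cells of strain 129, so that strain and stage cannot be told apart here. Among the secretory genes, Pdia4 rose in plasmablasts against GC cells (3.64 ± 0.59) and Derl3 rose against transitional cells (2.08 ± 0.46), 1 of 26 in each comparison. Of the NK-cell markers 5 of 8 and of the T-cell markers 4 of 10 fell in plasmablasts against GC cells, and 5 of 12 granulocyte markers rose against transitional cells. Their part was not tested.

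Ell2, Zbtb20 and Slamf7 rose together in GC cells against transitional cells. Ell2 had 9.36, 9.10, 9.26, 9.53 and 8.86 in GC cells, against 6.12, 6.65, 7.35 and 6.70 in transitional cells (2.51 ± 0.46, adjusted p = 0.00134). Zbtb20 had 9.74 to 10.27 in GC cells, against 8.44, 8.43, 8.37 and 8.18 in transitional cells (1.62 ± 0.32, adjusted p = 0.00251). Slamf7 had 7.44 to 8.72 in GC cells, against 6.64, 6.11, 5.96 and 6.72 in transitional cells (1.80 ± 0.37, adjusted p = 0.00332). They were 3 of 8 counted genes (Cd93 chose the transitional cells), where 13.5% of all genes passed and 5.29% were higher. The groups did not overlap in any of these 3 genes, nor in 34.8% of all genes. The other 5 had differences from -1.37 (Irf4) to 0.88 (Xbp1), against a median of -0.27 over all genes. Neither other probe set of Zbtb20 passed (0.35 and 0.16, adjusted p = 0.67 and 0.83). The GC cells were of strain B6 and the transitional cells of strain 129, and with strain as a covariate, estimated from the pro-B arrays alone, none of the 3 passed: the differences were 1.20 ± 0.92 for Ell2, 0.87 ± 0.65 for Zbtb20 and 2.14 ± 0.78 for Slamf7 (adjusted p = 0.671, 0.658 and 0.286). The covariate rests on 1 pro-B array of B6 and 2 of 129, among them replicate 1, of narrow spread. It cannot decide the part of strain. The NK-cell markers, at 6.45 to 7.33 in GC cells against 4.42 to 4.79 in transitional cells, and the T-cell markers, at 5.80 to 6.70 against 4.61 to 4.80, moved with them. So did the granulocyte markers, at 5.89 to 7.97 in GC cells against 3.66 to 5.14 in transitional cells (8 of 12 rose), and the macrophage and dendritic cell markers, at 5.46 to 6.48 against 4.23 to 5.23 (5 of 12 rose). Their part was not tested. Among relatives of these genes, Eaf2 (2.45 ± 0.52) and Aff4 (1.49 ± 0.46) rose, 2 of 10 in the list of Ell2, and Cd244a (2.79 ± 0.58), Slamf1 (1.36 ± 0.39) and Sh2d1a (2.06 ± 0.59) rose and Slamf8 fell by 1.23, in the list of 9 around Slamf7.

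The sequences before the start sites of these genes are shown because the genes moved together. Each is the 250 bases upstream of the RefSeq start (GRCm38.p6), on the gene's strand, 5′ to 3′, with matches to the searched motifs in capitals. Ell2 lies at chr13:75707234-75707483 (plus strand), Zbtb20 at chr16:43247034-43247283 (plus) and Slamf7 at chr1:171649000-171649249 (minus).
Ell2: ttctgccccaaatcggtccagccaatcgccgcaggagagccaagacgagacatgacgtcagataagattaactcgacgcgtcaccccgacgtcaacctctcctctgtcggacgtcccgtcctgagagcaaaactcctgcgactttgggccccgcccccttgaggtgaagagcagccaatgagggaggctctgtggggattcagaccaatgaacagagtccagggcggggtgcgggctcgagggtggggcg
Zbtb20: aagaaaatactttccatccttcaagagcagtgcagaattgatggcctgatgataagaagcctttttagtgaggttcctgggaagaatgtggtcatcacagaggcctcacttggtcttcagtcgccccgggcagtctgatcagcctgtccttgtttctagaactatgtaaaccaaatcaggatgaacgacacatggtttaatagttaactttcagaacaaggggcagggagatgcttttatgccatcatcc
Slamf7: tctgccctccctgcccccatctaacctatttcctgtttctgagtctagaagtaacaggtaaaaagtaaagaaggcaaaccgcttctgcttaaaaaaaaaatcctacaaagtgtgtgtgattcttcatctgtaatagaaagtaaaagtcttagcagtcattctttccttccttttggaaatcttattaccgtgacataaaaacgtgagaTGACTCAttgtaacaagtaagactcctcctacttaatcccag
The capitals in Slamf7 are TGACTCA, a match to the AP-1 element TGANTCA from base -42 to -36. RefSeq promoters were matched for 8 of the 9 genes, and 4 motifs were searched on both strands. TGANTCA was found in 2 of the 8, Slamf7 and Prdm1 (TGAATCA, base -48 to -42), and in 6.749% of 32851 promoters. The interferon-stimulated response element, which Irf factors and Prdm1 can bind, was found in Tnfrsf17 only, on the opposite strand (base -101 to -92), and in 2.977% of promoters. The Ets-Irf composite element and the core of the unfolded protein response element, TGACGTG, were in none of the 8, and in 2.301% and 1.65% of promoters. No other match to these 4 motifs lay in the windows of Ell2 and Zbtb20. The Ell2 window holds 61.2% G and C, that of Zbtb20 44.8% and that of Slamf7 38.0%.

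At the early steps none of the genes passed. In transitional against pre-B cells this was 0 of 8 (5.84% of all genes), with 4 at an unadjusted p under 0.05 by limma. In pre-B against pro-B cells it was 0 of 9 (0.161% of all genes), with 3 at an unadjusted p under 0.05. The percentages are for the adjusted threshold, and the share of all genes at the unadjusted one was not counted. Single arrays decided some of these values. Irf4 was 11.47, 10.96 and 11.69 in pre-B cells, against 2.52, 10.79 and 11.76 in pro-B cells, and Sdc1 was 10.43 to 10.98 in pre-B cells, against 4.15, 9.82 and 9.71 in pro-B cells. In both genes pro-B replicate 1, the array of narrow spread, was the low one. Slamf7 was 6.64, 6.11, 5.96 and 6.72 in transitional cells, against 7.91, 6.25 and 7.74 in pre-B cells (-0.95 ± 0.42, adjusted p = 0.205), and without pre-B replicate 2 its difference was -1.47 (adjusted p = 0.0272). In transitional against pre-B cells 12 of 12 granulocyte markers fell (median difference -5.85), where 2.91% of all genes fell. Of the erythroid markers 3 of 6 fell (median -3.70), and 1 of 6 rose in pre-B against pro-B cells. Their part was not tested.

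**Figure D4:**
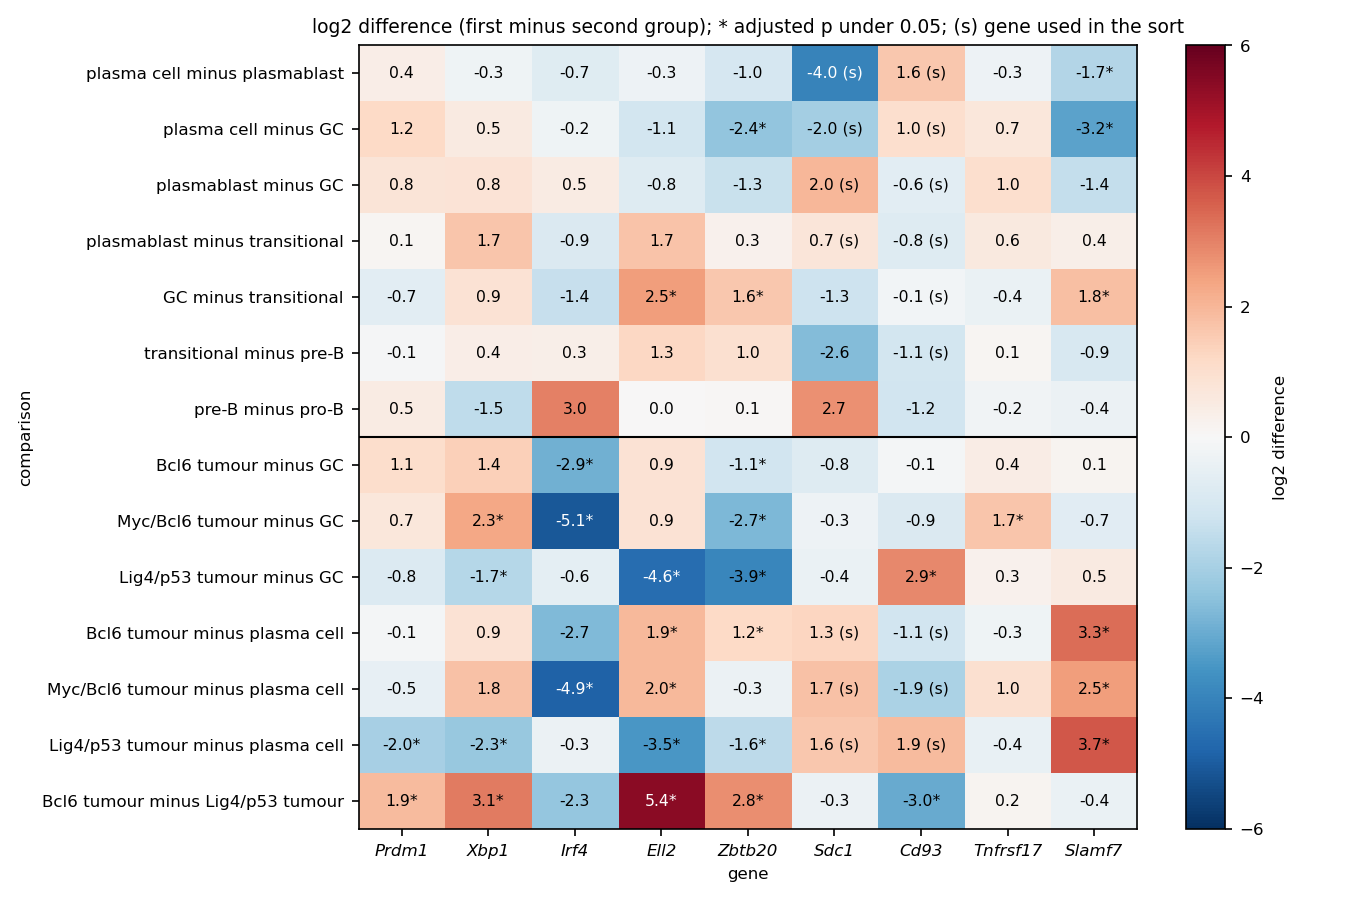
Log2 difference of each gene (columns) in each comparison (rows; the group named first minus the group named after it), red for higher and blue for lower; stars mark an adjusted p under 0.05 and (s) a gene used in a sort. Ell2 and Zbtb20 carry the darkest cells of the Lig4/p53 tumours, -4.6 and -3.9 against GC cells.

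The tumours were set against GC cells and plasma cells to ask which normal stage they resemble. In Lig4/p53 tumours the regulators Ell2, Zbtb20 and Xbp1 fell and the surface gene Cd93 rose against GC cells. Ell2 fell, with 3.31, 4.77 and 6.38 (lowest, median and highest of 6 tumours), against 8.86 to 9.53 in GC cells (-4.58 ± 0.48, adjusted p = 2.41e-08). Zbtb20 fell, with 5.38, 6.17 and 6.38 in the tumours, against 9.74 to 10.27 in GC cells (-3.93 ± 0.28, adjusted p = 1.04e-11), and its other probe sets gave differences of -3.76 and -2.37 that also passed. Xbp1 fell, with 4.43, 5.25 and 6.72, against 6.53 to 7.41 in GC cells (-1.72 ± 0.55, adjusted p = 0.0291), and all 4 of its probe sets passed in this direction. The Xbp1 call was lost without any of Lig4/p53 tumour replicates 2, 4 and 5 or GC replicates 1, 2, 3 and 4, where adjusted p reached at most 0.0767 over all alternatives. Cd93 rose, with 8.43, 9.06 and 10.15 in the tumours, against 5.83, 6.33, 6.61, 6.53 and 6.36 in GC cells (2.90 ± 0.71, adjusted p = 0.00374), a level that overlapped the pro-B cells, but its other probe set did not pass (0.18, adjusted p = 0.83). These were 4 of 9 genes, where 15.8% of all genes passed. Of the T-cell markers 9 of 10 fell in these tumours against GC cells (means 3.59 to 4.02, against 5.80 to 6.70), of the NK-cell markers 6 of 8 (3.45 to 4.40, against 6.45 to 7.33), and of the granulocyte and the macrophage and dendritic cell markers 4 of 12 each. Their part was not tested.

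Against plasma cells, 5 of 7 genes passed in Lig4/p53 tumours, where 11.5% of all genes did. Slamf7 rose, with 7.48, 8.99 and 9.15 in the tumours, against 5.58, 4.87 and 4.42 in plasma cells (3.75 ± 0.45, adjusted p = 2.5e-07). Prdm1 fell, with 3.92, 5.07 and 5.82, against 7.05, 7.07 and 6.90 in plasma cells (-2.01 ± 0.51, adjusted p = 0.00659). Ell2 fell by 3.50, Xbp1 by 2.26 and Zbtb20 by 1.58 on the log2 scale (adjusted p = 3.2e-05, 0.0171 and 0.00104). Of the other probe sets of Xbp1, 1420011_s_at passed (-1.99), and 1420012_at and 1420886_a_at did not (-1.87 and -2.32, adjusted p = 0.0802 and 0.162). Of those of Zbtb20, 1422064_a_at passed (-3.40), and 1451577_at did not (-0.30, adjusted p = 0.757). The Xbp1 call was lost without plasma cell replicate 1 or 2, and with plasma cell replicate 3 as the only plasma cell array the calls of Prdm1, Xbp1 and Ell2 were lost (adjusted p up to 0.576). Jchain was dim in these tumours, at 3.24 to 5.49, against 9.81 to 10.11 in plasma cells and 11.10 to 12.07 in GC cells (-5.91 ± 0.77 and -7.51 ± 0.66). Ighm was 12.01 to 13.43 in them. Of the 12 B-cell genes shut off in plasma cells, 5 fell in Lig4/p53 tumours against GC cells and none rose. Of all genes, 6.57% fell in this comparison. Bcl6 fell by 5.60, the chemokine receptor gene Cxcr5 by 3.63 and Ciita, the activator of MHC class II genes, by 2.28 on the log2 scale.

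Bcl6 tumours differed from Lig4/p53 tumours in 5 of 9 genes, where 26.4% of all genes passed. Ell2 was higher, with 11.03, 8.88, 10.18 and 10.22 in Bcl6 tumours, against 3.31, 4.77 and 6.38 (lowest, median, highest) in Lig4/p53 tumours (5.44 ± 0.51, adjusted p = 3.35e-09). Xbp1 was higher by 3.14 ± 0.59, Zbtb20 by 2.78 ± 0.30 and Prdm1 by 1.88 ± 0.46, and Cd93 was lower (-3.02 ± 0.76). The other probe set of Cd93 did not pass (-0.18, adjusted p = 0.718). The Bcl6 tumours had 10.16, 7.56, 7.95 and 8.49 of Xbp1 and 7.64, 7.30, 5.55 and 6.99 of Prdm1. Xbp1 was higher on all 4 probe sets, and 3 of them passed (1420886_a_at did not, at 0.98). Irf4 had a difference of -2.31 ± 0.94 (adjusted p = 0.0655), and without Bcl6 tumour replicate 1 it was -2.79 (adjusted p = 0.0477). Markers of other cells also differed between these tumours. The mean of 12 macrophage and dendritic cell markers was 6.17 to 7.89 in Bcl6 tumours, against 4.39 to 5.78 in Lig4/p53 tumours, that of 12 endothelial and stromal markers 5.33 to 6.08 against 3.67 to 4.04, and that of 10 T-cell markers 5.28 to 5.91 against 3.59 to 4.02. Their part in these differences was not tested.

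Against GC cells, 2 of 9 genes fell in Bcl6 tumours and none rose, where 26.8% of all genes passed and 13.9% were lower. Irf4 had 8.88, 6.44, 6.67 and 7.76 in Bcl6 tumours, below all GC arrays (9.38, 9.59, 10.43, 10.89 and 11.39; -2.90 ± 0.97, adjusted p = 0.0265). Zbtb20 had 9.12, 8.36, 9.10 and 8.71, below all GC arrays (-1.15 ± 0.31, adjusted p = 0.00689). Both fell on every probe set. The Irf4 call was lost without Bcl6 tumour replicate 2 or 3 or without GC replicate 4 or 5, and with the 3' to 5' difference as a covariate neither passed (adjusted p = 0.796 and 0.82). With renewed quantile normalization neither Irf4 (-2.50) nor Zbtb20 (-0.67) passed (adjusted p = 0.0881 and 0.122). Prdm1 differed by 1.05 ± 0.48 (adjusted p = 0.104), and it passed without Bcl6 tumour replicate 3 (1.49, adjusted p = 0.0252). Xbp1 differed by 1.42 ± 0.61 (adjusted p = 0.0824), and with renewed quantile normalization it passed (1.80, adjusted p = 0.0415). Of the NK-cell markers 7 of 8 fell in Bcl6 tumours against GC cells, and of the endothelial and stromal markers 9 of 12 rose and 1 fell, and their part was not tested. Against plasma cells, 3 of 7 rose (18.8% of all genes passed and 6.64% were higher): Slamf7 (3.34 ± 0.48, adjusted p = 7.27e-06), with 8.95, 7.41, 8.23 and 8.61 in the tumours, Ell2 (1.94 ± 0.61, adjusted p = 0.0232) and Zbtb20 (1.21 ± 0.36, adjusted p = 0.0165). The Ell2 call was lost without Bcl6 tumour replicate 1 or plasma cell replicate 3, and the Zbtb20 call without plasma cell replicate 1 or 2. On probe set 1422064_a_at the Zbtb20 difference had the opposite sign (-0.94, adjusted p = 0.26), and on 1451577_at it was 0.84 (adjusted p = 0.209).

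In the tumours labelled Myc/Bcl6, Irf4 was lowest of all groups, at 7.10, 3.72 and 4.90, against 9.38 to 11.39 in GC cells and 10.06 to 10.13 in plasma cells. It fell by 5.10 against GC cells and by 4.85 against plasma cells (SE 1.06 and 1.19, adjusted p = 0.000336 and 0.00285). Its other probe set, 1421174_at, had differences of 0.91 and 1.36 that did not pass (adjusted p = 0.12 and 0.0576). Zbtb20 fell against GC cells, with 7.26, 6.73 and 7.84 in the tumours (-2.70 ± 0.34, adjusted p = 4.5e-07), on all 3 probe sets. Tnfrsf17 rose, with 5.08, 5.46 and 4.79, against 3.14 to 3.86 in GC cells (1.67 ± 0.37, adjusted p = 0.000665). Xbp1 rose, with 10.68, 8.26 and 9.33, against 6.53 to 7.41 in GC cells (2.31 ± 0.67, adjusted p = 0.00593), on the probe set used only. These were 4 of 9 genes, where 48.1% of all genes passed. The interquartile range of intensity was 2.33 to 2.85 on the Myc/Bcl6 tumour arrays, against 3.95 to 4.14 on the GC arrays. All 4 calls held with renewed quantile normalization, and the part of the narrow spread was otherwise not tested. The Xbp1 call was lost without Myc/Bcl6 tumour replicate 1, and with the 3' to 5' covariate the calls of Xbp1 and Irf4 were lost (adjusted p up to 0.704 for Xbp1 over all alternatives and 0.081 for Irf4). Sdc1 had 7.75, 7.62 and 4.06 in these tumours and a difference of -0.29 ± 0.98 from GC cells (adjusted p = 0.815), while its probe sets 1437279_x_at and 1448158_at rose by 4.00 and by 1.92 (adjusted p = 0.00031 and 4.5e-05). Prdm1 differed by 0.69 ± 0.53, and it passed without Myc/Bcl6 tumour replicate 2 (1.54, adjusted p = 0.0201).

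Against plasma cells, 3 of 7 genes passed in the Myc/Bcl6 tumours, where 31.6% of all genes did. Slamf7 rose (2.52 ± 0.52, adjusted p = 0.0006), with 8.48, 6.20 and 7.75 in the tumours, Ell2 rose (1.96 ± 0.65, adjusted p = 0.0218), with 10.66, 9.25 and 10.39, and Irf4 fell as above. The Ell2 call was lost without Myc/Bcl6 tumour replicate 1 or 3 or plasma cell replicate 3. Xbp1 had a difference of 1.77 ± 0.74 (adjusted p = 0.0676), and it passed without Myc/Bcl6 tumour replicate 2 (2.35, adjusted p = 0.0312). Replicate 2, whose 7 liver markers had a mean of 11.97, against 4.20 and 4.31 in replicates 1 and 3, was the lowest of the 3 in Prdm1, Xbp1, Ell2, Irf4, Zbtb20 and Slamf7, and the highest in Tnfrsf17. Macrophage and dendritic cell markers were 6.06 to 6.77 in these tumours, against 5.46 to 6.48 in GC cells and 4.02 to 4.11 in plasma cells. Against GC cells, where 20.9% of all genes were lower and 27.2% higher, 6 of 10 T-cell and 6 of 8 NK-cell markers fell. Of the endothelial and stromal markers 7 of 12 rose and 1 fell in this comparison. The part of these markers was not tested.

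The 4 probe sets of Xbp1 gave different pictures of the Myc/Bcl6 and Bcl6 tumours. Against GC cells, 1437223_s_at, the one used, gave 2.31 in Myc/Bcl6 tumours. Probe sets 1420011_s_at and 1420012_at gave -0.49 and -0.47 (adjusted p = 0.462 and 0.59), and 1420886_a_at gave -2.61 (adjusted p = 0.0397). In Bcl6 tumours they gave 1.42, -0.74, -0.40 and -1.52 in the same order, and none passed. In sorted cells each of the 4 placed plasmablasts first among the 6 populations. Probe set 1420012_at passed in plasmablasts against transitional cells (3.00, adjusted p = 0.03), which were of different strains. Over the 35 arrays the other 3 correlated with the one used at 0.634, 0.747 and 0.397.

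**Figure D5:**
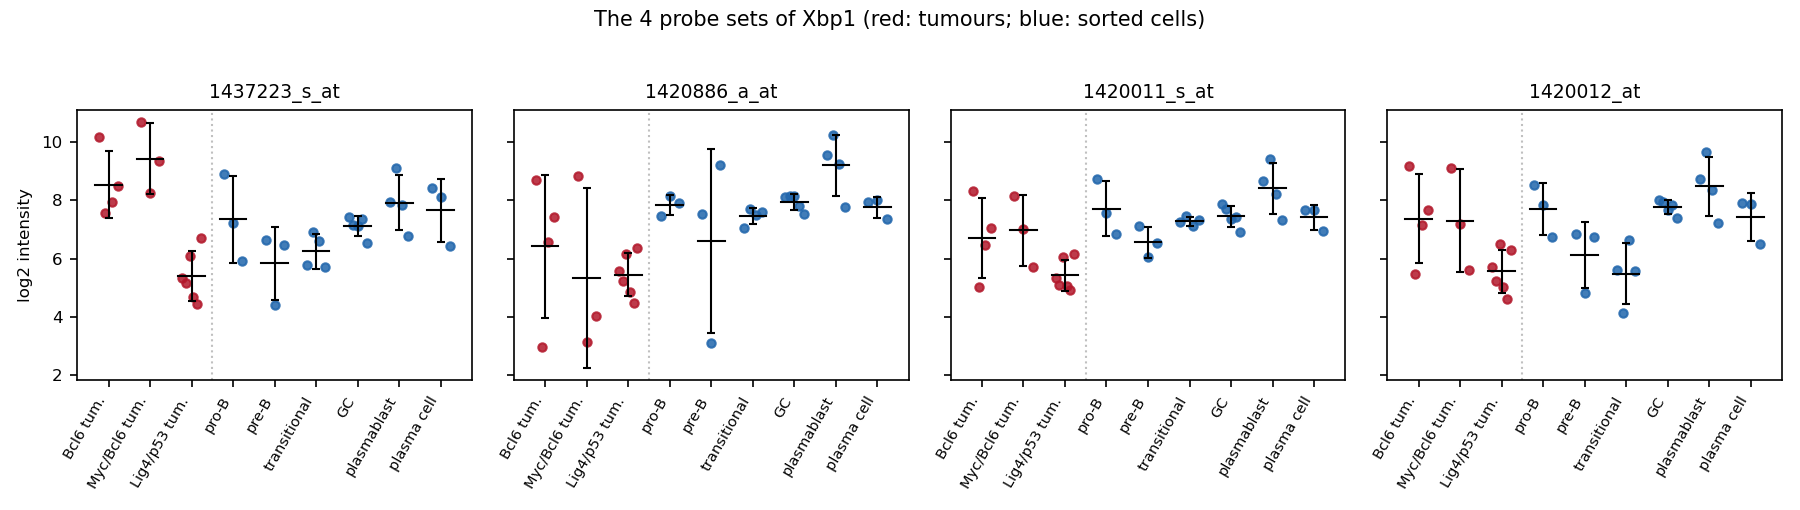
Log2 intensity of the 4 Xbp1 probe sets in each array (points; red tumours, blue sorted cells), with group means (horizontal bars) and SDs (vertical bars). Myc/Bcl6 tumours average 9.42 on 1437223_s_at and 5.33 on 1420886_a_at, while plasmablasts stand high on all 4.

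Over the 35 arrays, which share groups and array quality, some of the genes varied together. Ell2 correlated with Xbp1 (Pearson r = 0.771) and Zbtb20 (0.685), and Xbp1 with Prdm1 (0.565). Irf4 ran against Xbp1 (-0.509) and with Sdc1 (0.510). Cd93 ran against Ell2 (-0.584) and Prdm1 (-0.557). The genes most alike to each over these arrays were Nrp2 (r = 0.776), Ngb and Mep1a for Prdm1, Arhgap5 (0.700), Cd300lf and Rapgef3 for Xbp1, and Otud5 (0.930), Ube3c and Rpl19 for Irf4. They were Themis2 (0.786), Laptm5 and Aak1 for Ell2, and Cd3d (0.864), Cd3e and Plxnc1 for Zbtb20, Cd3d and Cd3e being T-cell receptor subunits. For the surface genes they were Acp6 (0.749), Ube4a and Ndufb7 for Sdc1, Xrcc6 (0.821), Plscr3 and Cux1 for Cd93, Cpeb3 (0.776), Tfr2 and Apoa1 for Tnfrsf17, and Myef2 (0.819), E2f8 and Dck for Slamf7. Apoa1, one of the liver markers, reached 12.28 in the tumours labelled Myc/Bcl6, the group with the highest Tnfrsf17. The mean of the 7 liver markers was high in replicate 2 of these tumours only, at 11.97, against 4.20 and 4.31 in replicates 1 and 3.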

How the data were processed

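Per the labels' protocols, Tripure-extracted RNA was amplified (NuGen Ovation V2) and biotinylated. The authors deposited a table of log2 intensities per probe set, made with RMA per the submitters' processing notes, which give no version. Of 22690 probe sets, 64 were controls, 1555 had no gene symbol and 691 had several. The other 20380 were used, and each gene was read from its probe set of highest mean over the 35 arrays, which left 12393 genes. The number of arrays limits the precision. Groups came from the labels.

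Comparisons were contrasts in limma 3.58.1 (R 4.3.3) with empirical Bayes moderation and Benjamini-Hochberg adjustment over all genes, fitted on the 22 arrays of sorted cells or, with tumours, on all 35; genes with an adjusted p under 0.05 were called. The fit was tested on simulated data. Alternatives changed the probe set, the filter on dim genes, the normalization, array weights, the samples fitted, covariates for strain and for the 3' to 5' difference, the replicate number as a block, and left out each array in turn. The other probe sets on their own were added after the data were seen. The 9 genes and the lists of related genes and cell markers were chosen with earlier results of these data known. Besides the 9 genes, the text names the 3 most alike by Pearson correlation, up to 3 called genes of smallest p from each list described, and sort checks. Others named, such as Pax5, Slamf1, Jchain and Apoa1, were chosen after their values were seen. Promoters are RefSeq's. Trp53 and Lig4 were not analysed here. Python 3.11.15 with pandas 2.3.3, numpy 2.4.6 and matplotlib 3.10.9 was also used.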

Additional observations from a re-analysis of the deposited data

Results flagged for a closer look

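In groups of 4 to 6 arrays, the highest or the lowest array stood apart from the others by Dixon's test in 4 of the 45 combinations of gene and group examined. Chance flags about 1 in 20. Sdc1 had 4.70 in Lig4/p53 tumour replicate 2, against 6.19 to 7.01 in the other 5 tumours. Tnfrsf17 had 4.73 in Bcl6 tumour replicate 2, an array of narrow spread, against 3.50 to 3.70 in the other 3. Tnfrsf17 had 4.55 in Lig4/p53 tumour replicate 3, against 3.37 to 3.69 in the other 5. Slamf7 had 5.81 in plasmablast replicate 4, against 6.92 to 7.08 in the other 3. The causes were not tested.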

How the results depend on the processing

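Of 249 counts of called genes under alternatives, 214 stayed within 1.5 times the value reported, and of 583 values of the 32 calls, 536 kept direction and side of the threshold, 46 lost the threshold and 1 changed sign; the causes were not tested. In plasma cells against plasmablasts the count of 1 became 2 with renewed quantile normalization, equal medians, array weights, the compared groups alone, or without the 3 arrays of narrow spread. Against GC cells the count of 2 became 5 with array weights, 5 with the compared groups alone and 4 without those arrays. In plasmablasts against GC cells the count of 0 became 2 with equal medians, 5 with array weights, 2 with the compared groups alone, 1 with the 3' to 5' covariate and 3 without those arrays, and against transitional cells 2, 3 and 2 with array weights, the groups alone and without those arrays. In GC against transitional cells the count of 3 became 7 with the groups alone and 0 with strain as a covariate, and in transitional against pre-B cells 0 became 1 with the groups alone and without those arrays. In Bcl6 tumours against GC cells 2 became 1 with renewed quantile normalization (Irf4 and Zbtb20 no longer passed and Xbp1 did), 1 with the replicate block and 0 with the 3' to 5' covariate, which also turned 4 into 2 in Myc/Bcl6 tumours. Against plasma cells, 3 became 5 in Myc/Bcl6 tumours with equal medians or without those arrays, and 5 became 3 in Lig4/p53 tumours with renewed quantile normalization and 2 with plasma cell replicate 3 as the only plasma cell array.

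With 1 array left out, the counts ran from 1 to 2 (Bcl6 tumours against GC cells; plasma cells against plasmablasts), 5 to 6 (Bcl6 against Lig4/p53 tumours), 2 to 3 (Bcl6 tumours against plasma cells), 3 to 3 (GC against transitional), 3 to 4 (Lig4/p53 tumours against GC), 4 to 5 (Lig4/p53 tumours against plasma cells), 3 to 5 (Myc/Bcl6 against GC), 2 to 4 (Myc/Bcl6 against plasma cells), 2 to 2 (plasma cells against GC), 0 to 1 (plasmablasts against GC; transitional against pre-B) and 0 to 0 (plasmablasts against transitional; pre-B against pro-B). In Myc/Bcl6 tumours against GC cells Xbp1 changed sign with the mean of its probe sets (-0.32) and on 1420011_s_at (-0.49), 1420012_at (-0.47) and 1420886_a_at (-2.61). Irf4 did so on 1421174_at against GC cells (0.91) and plasma cells (1.36), and Zbtb20 in Bcl6 tumours against plasma cells on 1422064_a_at (-0.94).

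Replicate numbers were not taken as a pairing. Pairs of same-numbered arrays had correlations of their deviations from -0.491 to 0.391, and in no comparison did every pair exceed 0.1. These correlations do not settle whether the arrays were paired. The replicate block changed no count of the 9 genes by more than 1.5 times except that of Bcl6 tumours against GC cells, from 2 to 1. Scaling moved the median difference of all genes in plasma cells against GC cells from 0.282 to 0.062 (renewed quantile) or 0.098 (equal medians), and the share of higher genes among those called from 60.9% to 50.4% or 47.1%. In GC against transitional cells that share moved from 39.2% to 56.8% or 53.6%. The number of all genes called depended on how the spread was estimated: array weights called 7080 of them in plasma cells against GC cells and 3010 in plasmablasts against GC cells, against 2422 and 84 as reported. Tnfrsf17 is dim, with a highest group mean of 4.47 among sorted cells (plasmablasts) and of 5.11 in Myc/Bcl6 tumours. The filter on dim genes removes it from the fits on sorted cells alone. In Myc/Bcl6 tumours against GC cells the filter kept it, and its call held under all 17 alternatives.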
